A study of Mus musculus with 12 samples.

Results

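The genes described here encode the core of the cell adhesion and tight junctions of epithelia: E-cadherin (Cdh1), the catenins β-catenin (Ctnnb1), α-catenin (Ctnna1) and p120-catenin (Ctnnd1), plakoglobin (Jup), ZO-1 (Tjp1), occludin (Ocln), JAM-A (F11r) and claudin-6 (Cldn6). They are 9 of the 18163 genes named on the arrays. The genes were chosen by symbol, with earlier results of these data known, and measured brightness only set which probe set stands for each. Their 18 probe sets were taken from the platform annotation. The brightest probe set of each gene, by mean over the 12 arrays, stands for the gene, and the others serve as a check. Affymetrix arrays measured gene expression in mid-2-cell mouse embryos, on 12 arrays in 4 groups of 3. The groups were Oct4-MO embryos, uninjected embryos of the Oct4-MO experiment, Ccna2-MO embryos, and uninjected embryos of the Ccna2-MO experiment.

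All embryos were wild type and came from superovulated F1 (C57BL6xDBA/2) females 3 to 5 weeks old that were mated with wild type males. They were collected as 1-cell embryos 17 h after hCG, freed of cumulus cells, and pooled from 3 to 6 females. Antisense morpholino oligonucleotides (MO) against Oct4 or against Ccna2, the cyclin A2 gene, were injected into the cytoplasm at a labelled dose of 0.6 mM. The study's main methods and its supplementary list of experiments both give a higher dose for Ccna2-MO than the labels do. This difference could not be resolved, so the knockdowns may also differ in dose. The controls were not injected, so the injection itself and the MO cannot be told apart in comparisons with them. For its arrays the study took the Ccna2 knockdown as the control for injection, for the oligonucleotides and for MO-bound transcripts. Here that bears on the difference between the knockdowns. RNA of 20 embryos was extracted per array, and the amount of 10 embryos went through 2 rounds of amplification. A MO blocks the translation of its target and need not lower the mRNA. The Oct4 transcript Pou5f1 averaged 2193 ± 331 with Oct4-MO and 1923 ± 166 without (SD, n = 3 each), and Ccna2 averaged 3595 ± 695 with Ccna2-MO and 3871 ± 394 without (SD, n = 3 each). These arrays therefore do not check the knockdown.

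E-cadherin is a calcium-dependent receptor that binds the E-cadherin of a neighbouring cell. β-catenin or plakoglobin binds its tail and couples it through α-catenin to actin, whereas p120-catenin holds it at the membrane. Tight junctions seal the space between epithelial cells, with occludin, claudins and JAM-A as membrane proteins and ZO-1 as their scaffold. In the mouse embryo E-cadherin drives compaction, after which tight junctions form in the outer cells that become trophectoderm. Both events come after the stage measured here.

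Values are linear probe set intensities that the authors had normalized in dChip. Intensities of different probe sets are not comparable as amounts of transcript. Levels were therefore compared between groups within a probe set, or within a fixed sum or mean of probe sets. Differences are log2 fold changes of value + 16, which understate changes of dim probe sets. A gene was called at a Benjamini-Hochberg adjusted p under 0.05 over all 44937 probe sets in limma. The arrays had medians from 22.7 to 25.5, with 39.3 to 42.7% of probe sets under 16, and the experiments did not overlap in level. Medians were 23.71 to 25.47 in the Oct4-MO experiment and 22.7 to 23.6 in the Ccna2-MO experiment. Under 16 were 39.3 to 41.2% of probe sets in the Oct4-MO experiment and 41.6 to 42.7% in the Ccna2-MO experiment. Mean intensities were 172.9 to 193.8 in the Oct4-MO experiment and 194.6 to 206.9 in the Ccna2-MO experiment. Of the markers of 1- to 2-cell embryos, 8 of 10 were measured, all were in the brighter part of the array (probe sets at or above the median by mean log2 value), and their summed intensity was between 14200 and 18434 on every array. The 15 markers of cumulus and granulosa cells had summed intensities of 869 to 1330 in Oct4-MO embryos, against 763 to 844 in their uninjected controls. They summed to 643 to 720.3 in Ccna2-MO embryos and 551 to 1137 in their uninjected controls. Most of the sum came from Gja1 and Cyp11a1, 3 of the 15 were in the brighter part of the array, and Fshr, Inha and Inhba were under 16 on every array. The Oct4-MO sums lay above all 3 of their controls, and the part of these cells in any result was not tested. In pooled embryos, fewer cells with a transcript and less transcript per cell cannot be told apart.

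None of the 9 genes was called in either knockdown. In Oct4-MO embryos 0 of 9 passed, beside 0.0734% of all probe sets, and in Ccna2-MO embryos 0 of 9, beside 0.748%. The unadjusted p was under 0.05 for 1 of 9 in Oct4-MO embryos (9.26% of all probe sets) and for 1 of 9 in Ccna2-MO embryos (14.1%), so these counts are close to the background. That gene was Ctnnb1 in both, and it was lower in both.

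Most of the 9 differences were small and negative in both knockdowns. The log2 fold change was below 0 for 6 of 9 genes in Oct4-MO embryos, with a median of -0.085. Over all 44937 probe sets 21888 were below 0, with a median of 0.0086. Over the brighter part, where 8 of the 9 genes lie, 11895 of 22469 were below 0, with a median of -0.030. The values of the 9 genes depended on single arrays. Without replicate 3 of the uninjected controls 4 of 9 genes were below 0, with a median of 0.011. In Ccna2-MO embryos 7 of 9 genes were below 0, with a median of -0.22. Over all probe sets 20998 were below 0, with a median of 0.024, and over the brighter part 11007, with a median of 0.012. In Oct4-MO embryos 0 of 9 genes lay higher on all 3 arrays than on all 3 control arrays (8.24% of all probe sets) and 0 of 9 lay lower (8.4%). In Ccna2-MO embryos 0 of 9 lay higher without overlap (8.64%) and 1 of 9, Ctnnb1, lay lower (8.27%).

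**Figure D1:**
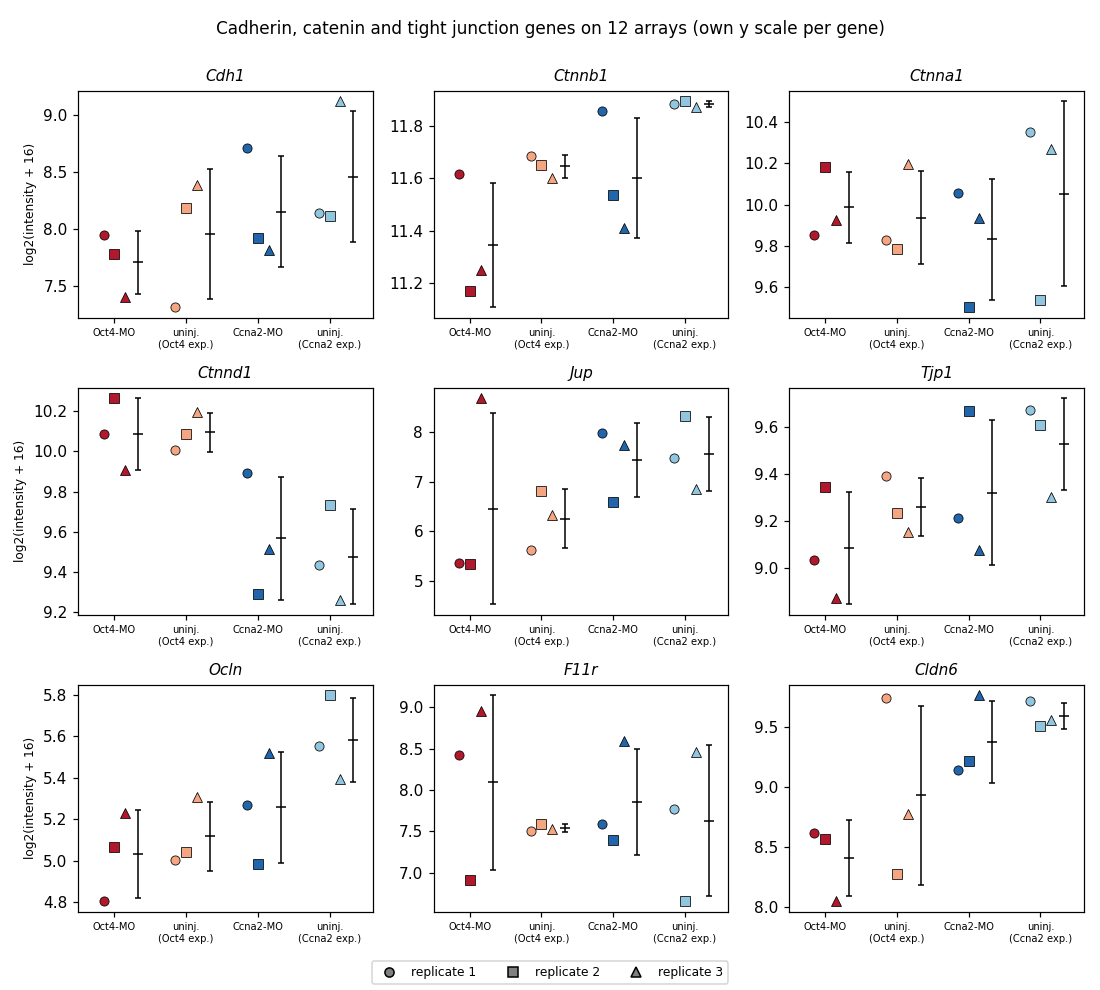
Each panel is 1 gene on its brightest probe set. The y axis is log2 of the intensity + 16 with its own scale, symbols mark the replicate, and the bars are the mean ± SD of 3 arrays. Ctnnb1 is tight in both uninjected groups and lower on most injected arrays, while Jup and F11r spread widely within groups.

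The cadherin itself was read by 1 probe set, in the brighter part of the array. Cdh1, which encodes E-cadherin, had intensities of 230.0, 203 and 153 in Oct4-MO embryos, against 143, 274 and 317 in their uninjected controls. It had 402, 227 and 209.6 in Ccna2-MO embryos, against 265, 261 and 540.1 in their uninjected controls. The groups overlapped in both experiments, and in each the array numbered 3 held the highest control value. The log2 fold change was -0.25 in Oct4-MO embryos (standard error 0.37, 95% interval -1.06 to 0.56, adjusted p = 0.922 from limma), and it was -0.57 without their uninjected replicate 1 and -0.039 without their uninjected replicate 3. In Ccna2-MO embryos it was -0.31 (standard error 0.37, 95% interval -1.12 to 0.50, adjusted p = 0.779 from limma). The difference between these changes was 0.056 (interval -1.09 to 1.20).

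Across the 4 groups the mean log2 level of Cdh1 was lowest in Oct4-MO embryos at 7.71, then 7.96 in their uninjected controls, 8.15 in Ccna2-MO embryos and 8.46 in the uninjected controls of that experiment. The arrays of every pair of neighbours in this order overlapped. Over the 12 arrays, the genes of the brighter part whose log2 values followed Cdh1 most closely were Sgms1 (Pearson r = 0.84), Focad (r = 0.83) and Srsf6 (r = 0.82). They lead 11416 genes ranked on 12 arrays that also share their pools, so these r values describe a ranking only.

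Among the catenins, Ctnnb1 showed the most regular pattern. It encodes β-catenin, which links cadherin to α-catenin and also carries Wnt signals to the nucleus. Its intensities were 3120.2, 2284 and 2421 in Oct4-MO embryos, against 3273, 3200.3 and 3086 in their uninjected controls. They were 3687, 2953 and 2703 in Ccna2-MO embryos, against 3763, 3789 and 3725 in their uninjected controls. In both experiments the injected arrays were more scattered than the controls, and each injected pool was below the uninjected pool cultured with it. The share of all probe sets with every pair lower was not counted, so the pairs are a description only. In the Oct4-MO experiment 1 injected array lay within the control range, whereas in the Ccna2-MO experiment the groups did not overlap.

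The log2 fold change of Ctnnb1 was -0.30 in Oct4-MO embryos (standard error 0.13, 95% interval -0.58 to -0.02, adjusted p = 0.497 from limma). It was -0.28 in Ccna2-MO embryos (standard error 0.13, 95% interval -0.56 to -0.0056, adjusted p = 0.345 from limma). The difference between these changes was -0.018 (interval -0.41 to 0.37). Neither change passed over all probe sets, and with the mean of its probe sets in place of the brightest it was -0.43 in Oct4-MO embryos and -0.025 in Ccna2-MO embryos.

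The other Ctnnb1 probe sets were read as a check. The second, 1450008_a_at, had 487, 371 and 358 in Oct4-MO embryos, against 625, 597 and 643 in their uninjected controls, so that every injected array was below every control. Its log2 fold change was -0.61 (standard error 0.22, adjusted p = 0.386 from limma). In Ccna2-MO embryos the same probe set had 437, 745 and 615, against 613, 627 and 779.5 in their uninjected controls, and the groups overlapped. The third, 1430533_a_at, gave log2 fold changes of -0.39 in Oct4-MO embryos, again with no overlap, and 0.40 in Ccna2-MO embryos. All 3 probe sets thus had a lower mean in Oct4-MO embryos, but the third had the opposite sign in Ccna2-MO embryos, and none passed in limma in either knockdown.

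The remaining catenins moved little on their brightest probe sets. Ctnna1 encodes α-catenin, the actin-binding partner of β-catenin, and its brightest probe set is of a type that may also bind related transcripts. Its intensities were 908, 1145 and 956 in Oct4-MO embryos, against 893, 866 and 1156 in their uninjected controls, a log2 fold change of 0.051 (standard error 0.23). They were 1049, 709 and 964 in Ccna2-MO embryos, against 1291, 726 and 1220.3 in their uninjected controls, a log2 fold change of -0.22 (standard error 0.23). The groups overlapped in both. All 3 injected pools of the Ccna2-MO experiment were below their own control pool, again a description only. The second Ctnna1 probe set of the brighter part had the opposite sign in both knockdowns, -0.16 in Oct4-MO embryos and 0.048 in Ccna2-MO embryos. The 2 dim probe sets were under 20 on every array.

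Ctnnd1 encodes p120-catenin, which keeps cadherin from being taken up from the membrane. On its brightest probe set it had 1072, 1216 and 944 in Oct4-MO embryos, against 1012, 1071 and 1159 in their uninjected controls. It had 935, 610.3 and 716 in Ccna2-MO embryos, against 676, 835 and 598 in their uninjected controls. The injected and uninjected embryos of each experiment overlapped, whereas every array of the Oct4-MO experiment was above every array of the Ccna2-MO experiment. Within experiments the log2 fold changes were -0.0097 in Oct4-MO embryos (interval -0.42 to 0.40) and 0.091 in Ccna2-MO embryos (interval -0.32 to 0.50).

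A second Ctnnd1 probe set, 1437448_s_at, gave a different picture. It had 55.3, 151 and 51.4 in Oct4-MO embryos, against 126, 253 and 142 in their uninjected controls. In Ccna2-MO embryos it had 103, 287 and 120.0, against 216, 309.8 and 274 in their uninjected controls. Each injected pool was below its own control pool in both experiments, although the groups overlapped in both. The share of all probe sets with such pairs was not counted. The log2 fold changes were -0.97 in Oct4-MO embryos (standard error 0.44, adjusted p = 0.527) and -0.72 in Ccna2-MO embryos (standard error 0.44, adjusted p = 0.502), both from limma. The sources used here do not say which Ctnnd1 transcripts each probe set reads.

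Plakoglobin, read by 1 probe set with no other as a check, varied most of all. Jup encodes this relative of β-catenin, which joins both adherens junctions and desmosomes. It had 24.8, 24.3 and 399 in Oct4-MO embryos, against 33.6, 96.2 and 64.4 in their uninjected controls. It had 238, 80.2 and 199.5 in Ccna2-MO embryos, against 162, 308 and 99.2 in their uninjected controls. A single Oct4-MO pool, replicate 3, was 16.4 times as bright as the dimmest of its group. The log2 fold change of Jup was 0.20 in Oct4-MO embryos (95% interval -1.49 to 1.89) and -0.92 without that array. It was also below 0 without uninjected replicate 1, at -0.11, and with all 6 uninjected arrays as controls, at -0.45. In Ccna2-MO embryos it was -0.11 (interval -1.80 to 1.58).

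The tight junction scaffold was steadier. Tjp1, which encodes ZO-1, had 509, 635 and 454 in Oct4-MO embryos, against 657, 586 and 554 in their uninjected controls. It had 578, 797 and 525 in Ccna2-MO embryos, against 799, 763 and 616 in their uninjected controls. The groups overlapped in both, with 2 of 3 injected pools below their own control in each. Tjp1 had log2 fold changes of -0.17 in Oct4-MO embryos (interval -0.62 to 0.27, adjusted p = 0.890 from limma) and -0.21 in Ccna2-MO embryos (interval -0.66 to 0.24, adjusted p = 0.715 from limma).

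Of the genes for membrane proteins of the tight junction, Ocln was dim. It encodes occludin, and its brightest probe set was just under the brighter part of the array. Its intensities were 11.9, 17.5 and 21.5 in Oct4-MO embryos, against 16.1, 16.9 and 23.6 in their uninjected controls. They were 22.6, 15.7 and 29.9 in Ccna2-MO embryos, against 31.0, 39.7 and 26.1 in their uninjected controls. All of these are at or near the level of the array median, where a change in transcript is compressed. The log2 fold changes of Ocln were -0.085 (interval -0.58 to 0.41) in Oct4-MO embryos and -0.33 (interval -0.82 to 0.17) in Ccna2-MO embryos. Its other probe set was under 5 on 10 of 12 arrays.

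F11r encodes JAM-A, an immunoglobulin-like adhesion molecule. It had 326, 105 and 478 in Oct4-MO embryos, against 166, 177 and 169 in their uninjected controls. The injected arrays lay on both sides of a narrow control range. It had 177, 152 and 369 in Ccna2-MO embryos, against 203, 84.8 and 337 in their uninjected controls. The log2 fold changes were 0.55 in Oct4-MO embryos (interval -0.62 to 1.72, and 0.12 without Oct4-MO replicate 3 or 1.14 without Oct4-MO replicate 2) and 0.23 in Ccna2-MO embryos (interval -0.95 to 1.40). The other F11r probe set was below 7 on every array and gives no information on the gene.

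Cldn6 encodes claudin-6, a claudin of early epithelia. It had 377, 362 and 249 in Oct4-MO embryos, against 837, 294 and 421 in their uninjected controls. It had 549, 578 and 853 in Ccna2-MO embryos, against 822, 709.6 and 737 in their uninjected controls. In each experiment 2 of 3 injected pools were below their own control pool and the groups overlapped. The log2 fold change was -0.52 in Oct4-MO embryos (standard error 0.33, 95% interval -1.23 to 0.19, adjusted p = 0.701 from limma), the most negative of the 9 genes. It was -0.11 without the uninjected replicate 1, the array at 837. In Ccna2-MO embryos the log2 fold change was -0.22 (interval -0.93 to 0.49, adjusted p = 0.829 from limma).

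**Figure D2:**
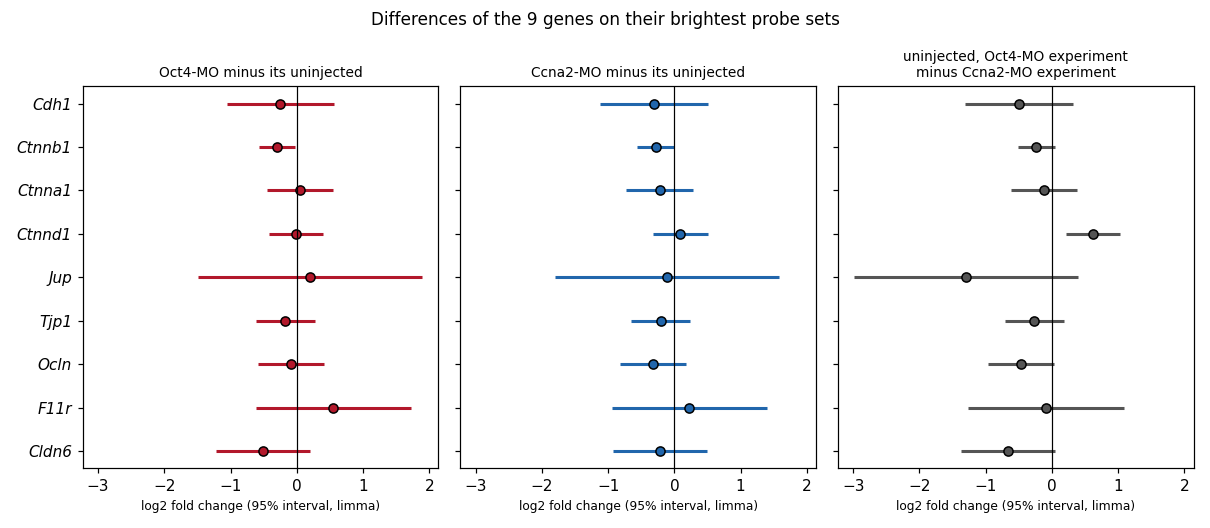
Log2 fold changes (x axis) of the 9 genes with 95% intervals from limma, for Oct4-MO embryos, for Ccna2-MO embryos, and between the uninjected groups. The intervals of Ctnnb1 end just below 0 in both knockdowns, and that of Ctnnd1 lies above 0 between the uninjected groups. None of these differences passed over all probe sets, and a second Ctnnd1 probe set had the opposite sign between the uninjected groups.

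The changes in the knockdowns were then compared with each other, to ask whether any junction gene responded to one MO and not to the other. The difference passed for 0 of 9 genes (0.00223% of all probe sets), and 0 of 9 had an unadjusted p under 0.05 (6.65%). The intervals were wide for several genes, from -2.07 to 2.70 for Jup and from -1.33 to 1.98 for F11r. They were narrowest for Ctnnb1.

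The uninjected groups were compared with each other in the same way. In uninjected embryos of the Oct4-MO experiment minus those of the Ccna2-MO experiment, 8 of 9 genes were below 0, with a median log2 difference of -0.27. Over all 44937 probe sets 22407 were below 0, with a median of 0.00083. Over the 22469 of the brighter part 11345 were below 0, with a median of -0.0056. None of the 9 genes passed (0 of 9, beside 0.0912% of all probe sets). The unadjusted p was under 0.05 for 1 of 9, Ctnnd1, which was higher (11.5% of all probe sets in either direction). In 1 of 9 genes, again Ctnnd1, every array of the Oct4-MO experiment's controls was above every array of the other controls (10.9% of all probe sets). In 3 of 9, Ctnnb1, Jup and Ocln, every array was below (10.3%).

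The Ctnnd1 difference was 0.62 on the log2 scale (standard error 0.19, 95% interval 0.21 to 1.03, adjusted p = 0.238 from limma), with 1012, 1071 and 1159 in uninjected embryos of the Oct4-MO experiment and 676, 835 and 598 in those of the Ccna2-MO experiment. The second Ctnnd1 probe set had the opposite sign, at -0.62 (standard error 0.44). Cldn6 had a log2 difference of -0.66 (interval -1.37 to 0.05) and Jup one of -1.30 (interval -2.99 to 0.39). Day, batch of embryos and experiment cannot be told apart in this comparison. For this reason each knockdown was set only against its own controls.

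Ordered by mean log2 level, 7 of 9 genes were highest in uninjected embryos of the Ccna2-MO experiment, and 5 of 9 were lowest in Oct4-MO embryos. Cdh1, Tjp1, Ocln and Cldn6 shared one order, with Oct4-MO embryos lowest, then their uninjected controls, then Ccna2-MO embryos, then the uninjected controls of that experiment. The shares of all probe sets with these orders were not counted, so the orders are a description only. They also hold the difference between the experiments, which cannot be told apart from day and batch. Of the 27 pairs of neighbouring groups, 2 had arrays that did not overlap, beside 8.44% of such pairs over all probe sets, so this count is close to the background. These were uninjected embryos of the Ccna2-MO experiment above uninjected embryos of the Oct4-MO experiment for Ctnnb1, and Oct4-MO embryos above Ccna2-MO embryos for Ctnnd1.

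The 9 genes differed in how well 3 pools fixed their level. The SD of log2 values within groups was 0.167 for Ctnnb1, 0.216 for Ocln, 0.219 for Ctnnd1 and 0.227 for Tjp1. It was 0.303 for Ctnna1, 0.441 for Cldn6 and 0.491 for Cdh1. For F11r it was 0.768 and for Jup 1.14. The SD of Ocln is compressed by the 16 added to its low intensities, and its brightest array was 3.32 times as bright as its dimmest. The brightest array was 1.66 times as bright as the dimmest for Ctnnb1 and 16.4 times for Jup, so a change that would stand out in Ctnnb1 would be lost within the spread of Jup or F11r.

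**Figure D3:**
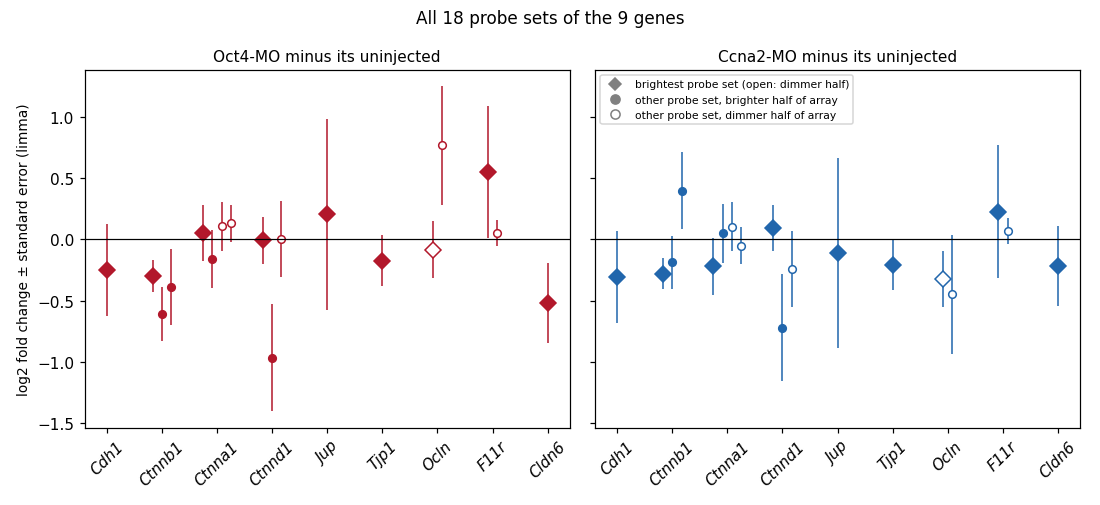
Log2 fold changes (y axis) with standard errors from limma for all 18 probe sets of the 9 genes (x axis). Diamonds mark the brightest probe set of each gene and open symbols the dimmer part of the array, and the probe sets of Ctnnd1 disagree in both knockdowns.

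For context, 92 of 96 other genes of the same structures were measured, 67 of them in the brighter part of the array. They cover adherens junction partners, desmosome genes, tight junction genes and genes of cell polarity. In Oct4-MO embryos 0 of 92 passed (0.0734% of all probe sets), and at an unadjusted p under 0.05 there were 8 higher (4.17% of all probe sets) and 1 lower (5.09%). Their median log2 fold change was 0.075. In Ccna2-MO embryos 2 of 92 passed, both higher (0.748% of all probe sets in either direction), and at an unadjusted p under 0.05 there were 7 higher (6.89%) and 6 lower (7.16%). Taken in both directions, the counts at an unadjusted p are close to the 9.26% and 14.1% of all probe sets. Their median log2 fold change in Ccna2-MO embryos was 0.0070.

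The genes that rose in Ccna2-MO embryos were Llgl1 and Ybx3. Llgl1 encodes a polarity protein of the basolateral side of epithelial cells. It had 1430.1, 1104 and 1765 in Ccna2-MO embryos, against 527, 632 and 506 in their uninjected controls. No array overlapped, and the log2 fold change was 1.32 (standard error 0.18, adjusted p = 0.0112 from limma). In Oct4-MO embryos Llgl1 had 1297, 1171 and 1329, against 919, 928 and 845 in their uninjected controls, which gave 0.49 on the log2 scale (adjusted p = 0.388 from limma). The difference between the knockdowns was -0.84 (adjusted p = 0.636 from limma), so the larger change in Ccna2-MO embryos was not shown to differ.

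Ybx3 encodes a Y-box protein that binds the SH3 domain of ZO-1. It had 2576, 2587 and 2491 in Ccna2-MO embryos, against 1272, 1761 and 1349 in their uninjected controls, 0.81 higher as log2 (SE 0.14, limma adjusted p = 0.0328), with no overlap. With the pair of pools as a block, Llgl1 still passed (adjusted p = 0.0464 from limma) and Ybx3 did not (adjusted p = 0.0611 from limma). With all 6 uninjected arrays as controls, Ybx3 passed (adjusted p = 0.0488 from limma) and Llgl1 did not (adjusted p = 0.0526 from limma). Ybx3 in Oct4-MO embryos had a log2 fold change of 0.057, and the difference between the knockdowns did not pass (adjusted p = 0.576 from limma).

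No other junction gene passed. The smallest p in Oct4-MO embryos belonged to the desmosome plaque gene Dsp, desmoplakin, with 349, 368 and 173 in Oct4-MO embryos, against 17.1, 59.2 and 38.0 in their uninjected controls. Its groups did not overlap, with a log2 difference of 2.54 (SE 0.56, limma adjusted p = 0.135). Among adherens junction partners the smallest p in Oct4-MO embryos was that of Ctnnbip1, an inhibitor of β-catenin in Wnt signalling, at 1.39 (adjusted p = 0.315 from limma). Among tight junction genes it was Cgnl1, paracingulin, at 0.96 (adjusted p = 0.449 from limma). The polarity gene was Rdx, radixin, at 0.45 (adjusted p = 0.289 from limma). In Ccna2-MO embryos the adherens junction gene with the smallest p was Ajuba, a LIM protein that binds α-catenin, at -1.77 (adjusted p = 0.141 from limma). For desmosomes it was Perp, at 0.62 (adjusted p = 0.489 from limma).

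Oct4 and its relatives bind the octamer ATGCAAAT. RefSeq promoters (build GRCm38.p6, 250 bases before to 50 after each start) were at hand for 7 of the 9 genes, with 10 start sites in all, and Cdh1 and Ctnna1 were not among them. The octamer was found on neither strand in any of the 10, and in 1.74% of all 32851 promoters of that length. The search says only that these letters are not in these windows.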

How the data were processed

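RNA of 12 pools of mid-2-cell embryos was hybridised to Affymetrix arrays. The authors used dChip for normalization, and the deposited table holds 1 linear intensity per probe set. Version and model options of dChip: not given in the sources used here. All 12 columns were used. Of 45001 probe sets, 64 array controls were left out. The platform annotation gave 1 gene symbol to 34849 of the others, several to 928 (not named) and none to 9160. The brighter part comprises 22469 probe sets at or above the median by mean log2.

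R 4.3.3 and limma 3.58.1 were used on log2(value + 16). A model of 4 group means over all 12 arrays with an eBayes trend gave each knockdown against its own controls, the difference between them and the comparison of the uninjected groups. The p-values measure the spread between these pools only, and 3 arrays per group limit the precision. The steps were tested on simulated data. The members and lists were chosen with earlier results of these data known. Of the other junction genes, those that passed in the main model are named, and where none did, the gene of lowest p in each list and comparison.

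Per the labels, an injected pool and the uninjected pool of its number were split from 1 embryo pool and cultured in parallel, so the numbers pair the samples. Over the brighter part, deviations of paired arrays correlated at 0.105, 0.0613 and -0.00016 for Oct4-MO and at -0.015, 0.111 and 0.15 for Ccna2-MO. Alternatives were this replicate block, both uninjected groups (6 arrays) as controls, a fit to the 6 arrays compared, no intensity trend, 1 or 64 added, the brighter part alone, quantile normalization, centring on the median of the brighter part, array weights, averaging the probe sets of each gene that lie in the brighter part (or all of them where none does, as for Ocln), and leaving out each array.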

Additional observations from a re-analysis of the deposited data

How the results depend on the processing

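None of the 9 genes passed under any alternative, in any of the 4 comparisons. The replicate block (lowest adjusted p from limma 0.399 for Oct4-MO and 0.283 for Ccna2-MO) changed only the call of Ybx3. It could not be fitted between the uninjected groups, where pairs lie within an experiment. Pooling all 6 controls leaves no such comparison, and with pooled controls or only 6 arrays the difference between the knockdowns was not fitted. Over the alternatives the median of the 9 genes was -0.32 to 0.011 in Oct4-MO embryos (4 to 8 genes below 0), -0.33 to -0.073 in Ccna2-MO embryos (6 to 8), -0.088 to 0.27 for the difference between the knockdowns and -0.38 to -0.19 between the uninjected groups (7 to 8). Ocln is not in the brighter part of the array. The 2 calls among other junction genes in Ccna2-MO embryos became 1 with the replicate block, with all 6 controls, without the trend and with array weights, 0 with only the 6 arrays of the comparison, and 3 when the probe sets of each gene were averaged or the brighter part of the array was tested alone. The gene or genes added in the settings with 3 calls are not named, as they did not pass in the main model. Where 1 call was left it was Llgl1, except with all 6 controls. There Ybx3 passed (adjusted p = 0.0488 from limma) and Llgl1 fell short (adjusted p = 0.0526 from limma). The calls ranged from 0 to 2 when 1 array was left out. Without replicate 1 of the uninjected controls of the Ccna2-MO embryos neither gene passed (adjusted p = 0.0558 for Llgl1 and 0.123 for Ybx3, from limma). Ybx3 alone also fell short without Ccna2-MO replicate 1 or 2, without replicate 3 of their controls, and without replicate 1 or 3 of the other controls. The 0 calls in Oct4-MO embryos became 1, Dsp, with array weights (adjusted p = 0.0433 from limma) and ranged from 0 to 1 when 1 array was left out, 1 being without Ccna2-MO replicate 2 (adjusted p = 0.048 from limma).

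Among uncalled differences, signs turned in these cases. With all 6 controls, Oct4-MO embryos had log2 fold changes of -0.0082 for Ctnna1, 0.30 for Ctnnd1 and -0.45 for Jup, and Ccna2-MO embryos had -0.22 for Ctnnd1, 0.54 for Jup and 0.11 for Cldn6. Ctnnd1 in Oct4-MO embryos was 0.090 after quantile normalization and 0.046 after median centring, and the Ctnnb1 difference between the knockdowns was 0.018 and 0.034. Averaging a gene's probe sets, Oct4-MO embryos had -0.055 for Ctnna1 and 0.34 for Ocln, Ccna2-MO embryos had -0.32 for Ctnnd1, and the uninjected groups differed by 0.0065 for Ctnna1 and -0.0015 for Ctnnd1. Ctnnb1 kept its sign but had -0.025 in Ccna2-MO embryos (adjusted p = 0.96 from limma). The Ctnnd1 difference between the uninjected groups thus rests on its brightest probe set. Leaving out 1 array turned further signs. Over these 12 fits, Oct4-MO embryos had ranges of -0.0469 to 0.18 for Ctnna1, -0.0996 to 0.0803 for Ctnnd1, -0.916 to 0.767 for Jup and -0.183 to 0.0296 for Ocln. Ccna2-MO embryos had -0.586 to 0.0253 for Cdh1, -0.0726 to 0.229 for Ctnnd1, -0.466 to 0.315 for Jup and -0.262 to 0.642 for F11r. The difference between the knockdowns was -0.276 to 0.335 for Cdh1, -0.153 to 0.11 for Ctnnb1, -0.239 to 0.0629 for Ctnnd1, -0.803 to 0.879 for Jup, -0.0978 to 0.206 for Tjp1, -0.102 to 0.915 for F11r and -0.626 to 0.105 for Cldn6. The uninjected groups differed by -0.376 to 0.0319 for Ctnna1 and -0.577 to 0.327 for F11r. Without turning, Oct4-MO embryos had -0.573 to -0.0389 for Cdh1, -0.435 to -0.212 for Ctnnb1, -0.305 to -0.0695 for Tjp1, 0.124 to 1.14 for F11r and -0.844 to -0.113 for Cldn6, and Ccna2-MO embryos had -0.41 to -0.187 for Ctnnb1, -0.48 to -0.0567 for Ctnna1, -0.38 to -0.0865 for Tjp1, -0.456 to -0.189 for Ocln and -0.413 to -0.102 for Cldn6. The cause of these turns was not tested. Low intensity over background limits Ocln.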
